A study of Mus musculus with 9 samples.

Results

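The genes described here encode the proteins of the mitochondrial ribosome. They were taken as the protein-coding mouse genes whose symbol starts with Mrpl (large subunit) or Mrps (small subunit) followed by a digit. Of the 47729 gene identifiers in the count files, 78 met this rule, 49 of the large subunit and 29 of the small subunit. The mitochondrial ribosome is built in the mitochondrial matrix from ribosomal RNAs transcribed from mitochondrial DNA and from proteins that are encoded in the nucleus, made in the cytosol and imported. It translates the few proteins that mitochondrial DNA encodes, which are core subunits of the respiratory chain and of ATP synthase. Some of its proteins descend from bacterial ribosomal proteins, whereas others are found in mitochondria alone.

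The study compared adult mice that carried no, 1 or 2 floxed alleles of Dot1l, the methyltransferase of histone H3 lysine 79, to ask how a lower Dot1l dose in midbrain dopamine (DA) neurons alters their transcripts. RNA-seq was performed on midbrain tissue dissected at P180, that is at 180 days after birth. The series' design text also describes sorted embryonic neurons, whereas all 9 libraries here are labelled as the adult dissection. The 3 genotypes were Dot1l(+/+), Dot1l(fl/+) and Dot1l(fl/fl), with 3 libraries each. All animals, controls included, were on C57/Bl6 and carried 1 Cre allele (Pitx3-Cre/+) and a Rosa-lox-stop-lox-Yfp reporter, so no group lacks Cre. Cre is expressed from the Pitx3 locus, which in brain is active in midbrain DA neurons, and the dissected tissue also holds neurons and glia without Cre. Each library was a pool of 3 dissected midbrains, so the spread between libraries is that between pools and not between single animals.

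The libraries held 16422135 to 28403218 counts. Dot1l itself was measured at 85.2, 80.2 and 85.1 CPM (a gene's count scaled to the normalized total of its library) in the Dot1l(+/+) pools, at 84.2, 60.6 and 75.6 CPM in the Dot1l(fl/+) pools and at 82.1, 73.9 and 82.9 CPM in the Dot1l(fl/fl) pools, and did not differ from control in Dot1l(fl/+) (edgeR adjusted p = 0.62) or in Dot1l(fl/fl) (adjusted p = 0.999). The count covers the whole gene and not the floxed part alone, so it does not check the genotype. The 10 DA neuron markers summed to 632 to 699 CPM in control, 496 to 642 CPM in Dot1l(fl/+) and 480 to 511 CPM in Dot1l(fl/fl), against 10200 to 11700 CPM for the 8 oligodendrocyte markers over all libraries, so the tissue labelled as DA neurons is mixed midbrain. Some pools carried more RNA of neighbouring structures. The 3 hypothalamus markers summed to 120 and 55.5 CPM in Dot1l(fl/+) replicates 1 and 3 and to at most 8.28 CPM in any other pool, and the 3 choroid plexus markers summed to 514 CPM in Dot1l(fl/+) replicate 3, 41.1 to 140 CPM in the other control and Dot1l(fl/+) pools and 15.03 to 20.35 CPM in the Dot1l(fl/fl) pools. In such bulk tissue, fewer cells of a type and less RNA per cell cannot be told apart.

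In control midbrain the mitochondrial ribosome genes were expressed at moderate levels. Levels between genes were compared per length, as CPM divided by the kilobases of the gene's exons (CPM per kb). The median gene of the large subunit was at 8.59 CPM per kb and that of the small subunit at 6.63 CPM per kb, where the median of the 14734 protein-coding genes tested was 5.49 CPM per kb. The highest genes of the large subunit were Mrpl41 with 31.5 ± 1.04, Mrpl10 with 28.9 ± 0.534 and Mrpl34 with 21.6 ± 0.70 CPM per kb (mean ± SD, n = 3). Mrpl41 and Mrpl34 are small proteins of the large subunit, and Mrpl10 anchors its stalk. In the small subunit Mrps23 with 19.1 ± 0.563, Mrps12 with 18.4 ± 0.871 and Mrps15 with 15.4 ± 1.49 CPM per kb were highest. Mrps12 is the decoding-centre protein, a homologue of bacterial S12. The order within a subunit was loose: of 48 pairs of neighbours in the order of the large subunit, 11 had pools that did not overlap, and of 28 pairs in the small subunit 9 did.

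**Figure D1:**
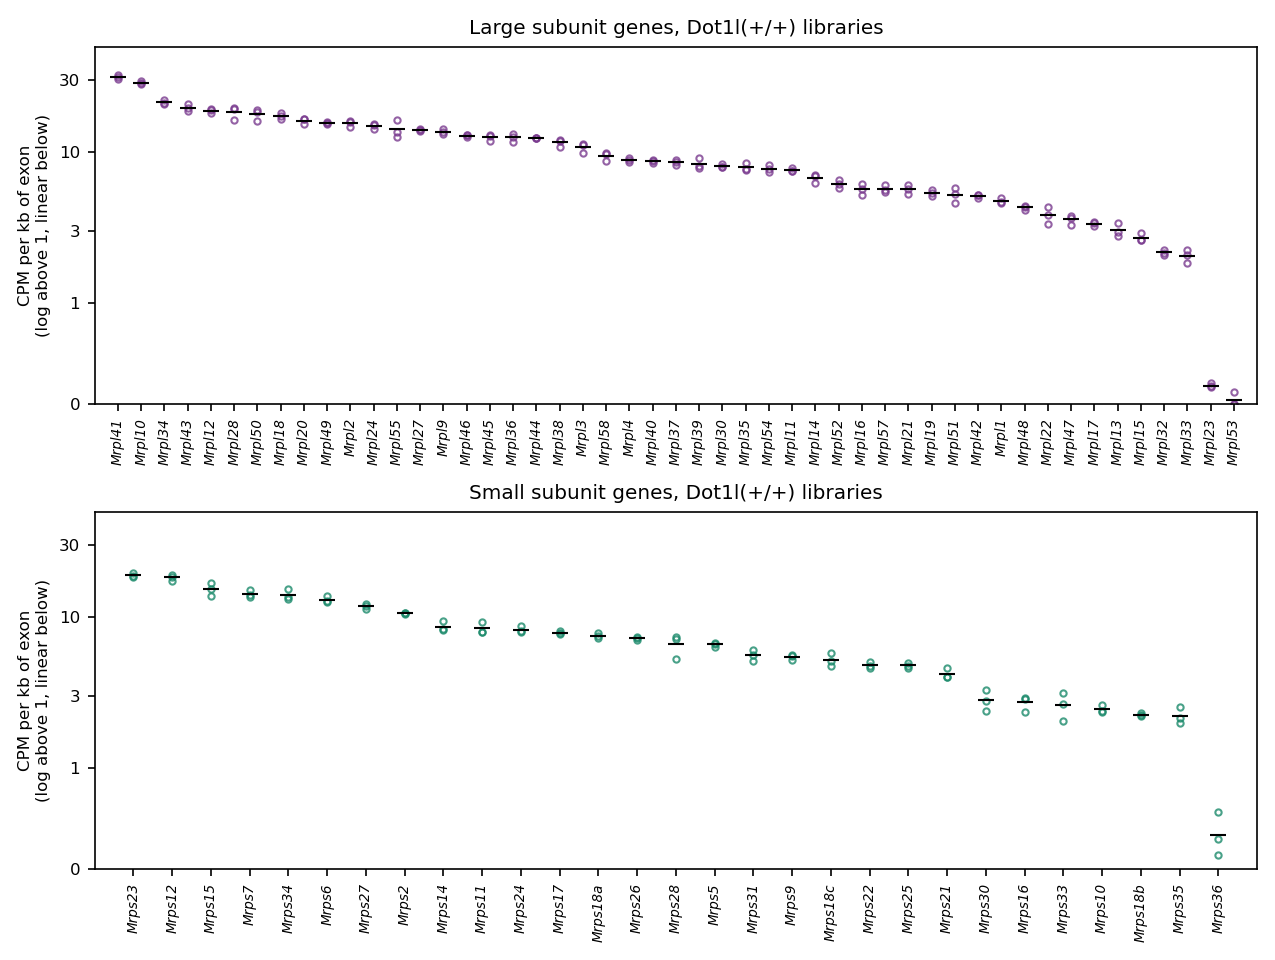
Level of each mitochondrial ribosome gene in the 3 Dot1l(+/+) libraries, in CPM per kb of exon (vertical axis, logarithmic above 1 and linear below), with genes in order of their mean in each subunit. Circles are single pools and dashes are means; most genes lie between 2 and 30 CPM per kb, and Mrpl23, Mrpl53 and Mrps36 lie below 1.

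Some of the lowest genes share sequence with other genes. Mrpl53 had 7 counts over all 9 libraries, with 0.0946, 0 and 0 CPM in the control pools, and was the 1 member of 78 that failed the filter on low counts. Of its 790 exonic bases 695 are also annotated, on the same strand, to the protein-coding gene Gm42688, which had 554 counts. Mrps36 had 87 counts (0.331 ± 0.215 CPM per kb) beside 434 counts for the processed pseudogene Mrps36-ps1, which matches 306 bases of its transcript at 99.3% identity. Mrpl23 (0.179 ± 0.0208 CPM per kb) had 211 counts. The pseudogene that carries its symbol, Mrpl23-ps1, had 1384 counts but was not among the near copies found. The next lowest were Mrpl33 with 2.06 ± 0.195 in the large subunit, and Mrps35 with 2.23 ± 0.289 and Mrps18b with 2.26 ± 0.0429 CPM per kb in the small subunit (n = 3). Mrps18b also has a near copy, the pseudogene Gm13552 (99.8% identity over 417 bases, 492 counts against 1140). Taken per kilobase of the principal transcript instead of all exons, the order changed. Mrpl41 (36.0 CPM per kb), Mrpl20 (35.4) and Mrpl33 (31.5, with 7326 bases in its exons and 478 in its principal transcript) were then highest in the large subunit, where Mrpl34 was at rank 13. Mrps34 (31.6), Mrps18a (31.5) and Mrps15 (27.8) were then highest in the small subunit, where Mrps23 was at rank 5 and Mrps12 at rank 7. In all, 31 of the 78 genes shared at least 10% of their exonic bases with another gene or had a near copy elsewhere that is annotated as a pseudogene, and their counts are less certain.

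The genes lie scattered over 17 chromosomes, at most 11 of them on 1 chromosome (11). A feature they share is a divergent neighbour: 33 of the 77 tested members (42.9%) have another protein-coding gene that starts within 1000 bases on the opposite strand, against 14.5% of all protein-coding genes tested. Mrpl46 and Mrps11, of the large and the small subunit, are such neighbours of each other and share 173 exonic bases. To see which promoter motifs the members hold, RefSeq windows (GRCm38.p6) from 250 bases before to 50 bases after the gene start were searched on both strands. A window lay within 500 bases of the annotated start for 62 members. The NRF1 motif (GCGCA, any base, then GCGC), named after a regulator of nuclear genes for mitochondrial proteins, stood in 21% of member windows and in 10.1% of the 10126 windows of tested protein-coding genes. YY1 (AAGATGGC) stood in 14.5% against 4.43%, and the ETS motif (CCGGAAG) in 35.5% against 17%. The GC box (GGGCGG) stood in 51.6% of member windows against 64.1%, CCAAT in 38.7% of both sets and the TATA box (TATAAA) in 4.84% against 7.13%. The ETS and YY1 motifs can overlap by their shared AAG, and a match describes letters only.

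In the Dot1l(fl/+) midbrain most mitochondrial ribosome genes were slightly higher than in control, by less than the test could call for nearly all of them. The fold change was above 0 for 41 of 48 tested genes of the large subunit, with a median log2 fold change of 0.095 (1.07-fold), and for 20 of 29 genes of the small subunit, with a median of 0.085 (1.06-fold). Over all 17671 genes tested, 48.9% had a fold change above 0 and the median log2 fold change was −0.0034. With edgeR's quasi-likelihood test 9 members passed an unadjusted p under 0.05, 4 of the large and 5 of the small subunit. All 9 were higher in Dot1l(fl/+), where 4.3% of all genes tested passed as higher, 4.09% as lower and 8.39% in either direction. After Benjamini-Hochberg adjustment over all genes, 0 members passed 0.05 (lowest adjusted p = 0.54). DESeq2 on the same libraries gave 9 by the unadjusted p, where 4.42% of its 28310 genes passed, and 0 by the adjusted p. DESeq2 on the 2 genotypes alone gave 7, where 3.49% of its 27468 genes passed, and 0. The DESeq2 fits kept genes with low counts, so their shares are over more genes. In 12 of the 77 members all 3 Dot1l(fl/+) pools lay above all 3 control pools, where 6.84% of all genes tested did, and in 0 members did they all lie below, against 6.47%. Cell type markers differed too: 3 of 8 oligodendrocyte markers were called higher (median log2 fold change 0.104), 3 of 10 DA neuron markers were called lower (−0.172) and 2 of 3 choroid plexus markers were called higher (1.19). Both tested hypothalamus markers were called higher (3.04). Of the astrocyte markers 1 of 6 was called higher (median −0.036), and of the blood markers 1 of 3 was called lower (−0.331). The part of all these markers in the members' values was not tested.

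**Figure D2:**
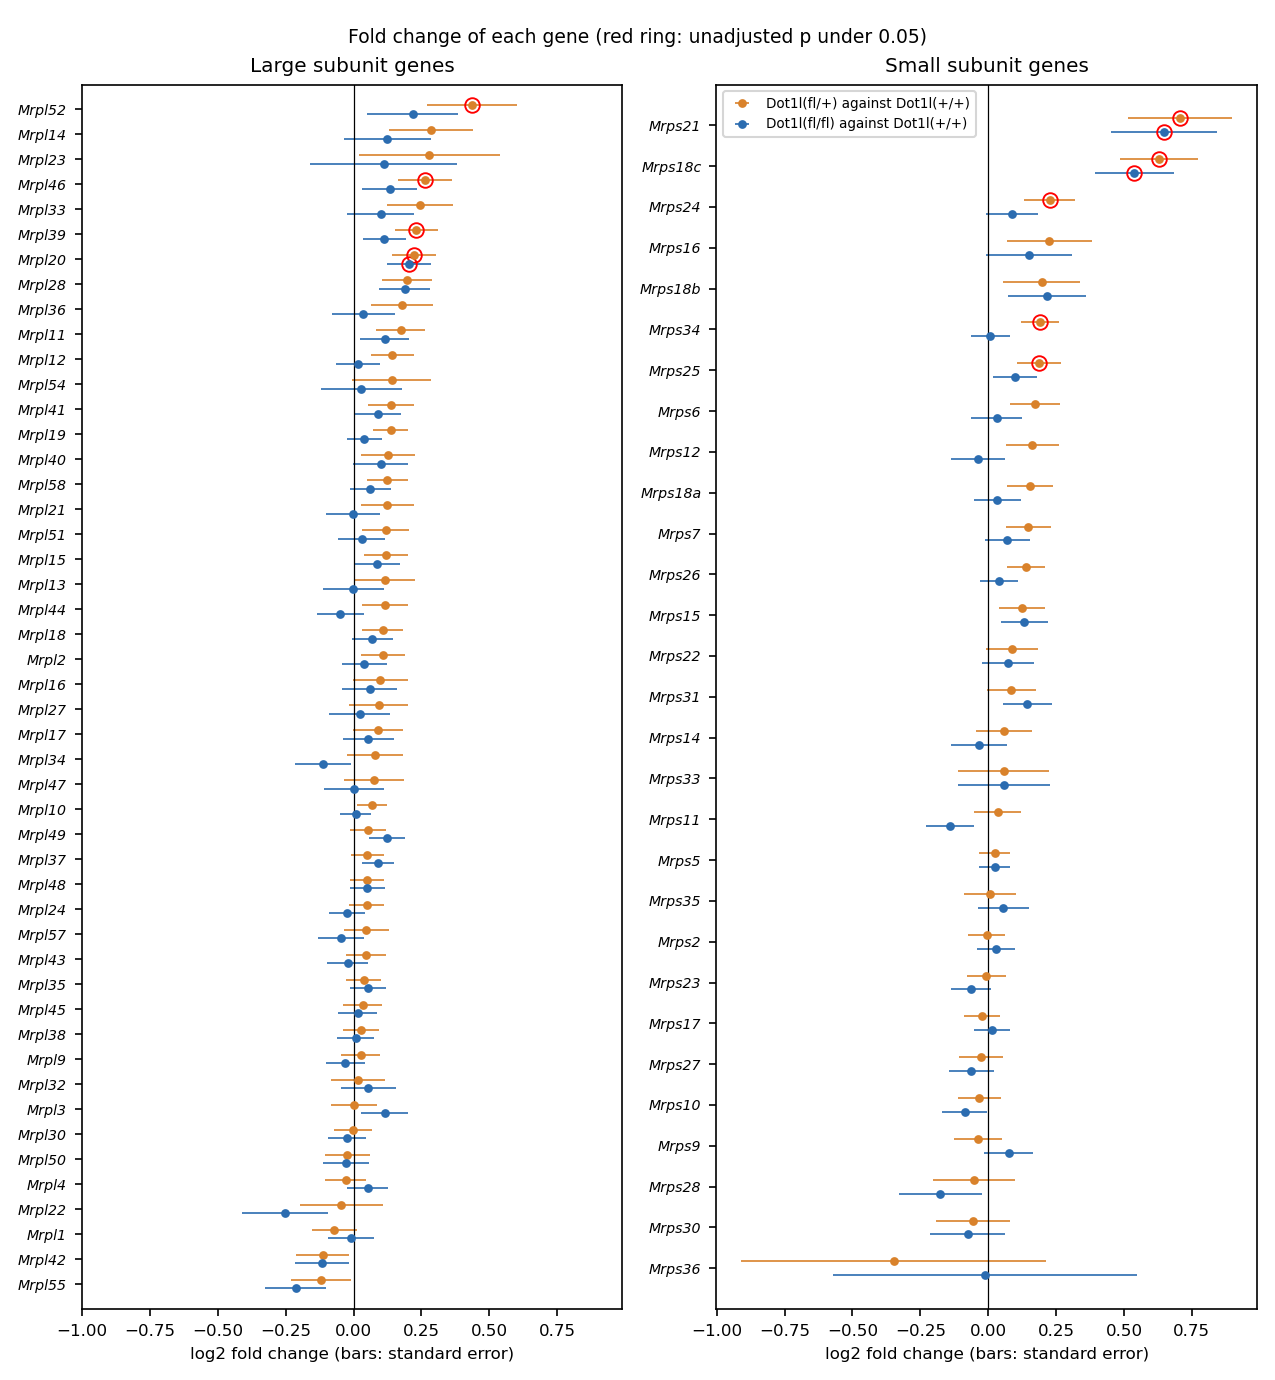
log2 fold change of each tested gene (horizontal axis) in Dot1l(fl/+) (orange) and Dot1l(fl/fl) (blue) against the shared Dot1l(+/+) libraries, with standard errors as bars and genes in order of the Dot1l(fl/+) value. Orange points lie mostly right of 0; red rings mark an unadjusted p under 0.05, and Mrps21 and Mrps18c stand furthest right in both comparisons.

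The largest differences were those of Mrps18c and Mrps21, both proteins of the small subunit with a bacterial relative. Mrps18c (chr5:100798627-100804471, plus strand, GRCm38) is 1 of 3 paralogous S18 proteins. Its level was 5.49, 6.27 and 5.15 CPM in the control pools, 7.91, 8.90 and 9.27 CPM in the Dot1l(fl/+) pools and 8.32, 9.57 and 6.43 CPM in the Dot1l(fl/fl) pools. All pools with a floxed allele were higher than every control pool. The log2 fold change was 0.63 (SE 0.14, 1.55-fold) in Dot1l(fl/+), with an unadjusted p of 0.000739 and an edgeR adjusted p of 0.54, and 0.54 (SE 0.15, 1.45-fold) in Dot1l(fl/fl), with an unadjusted p of 0.00269 and an adjusted p of 0.999.

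Mrps21 (chr3:95862634-95871519, minus strand, GRCm38) belongs to the S21 family of the small subunit. Its level was 3.41, 2.96 and 2.97 CPM in the control pools, 4.27, 5.58 and 5.34 CPM in the Dot1l(fl/+) pools and 4.36, 6.37 and 3.70 CPM in the Dot1l(fl/fl) pools. Again no pool with a floxed allele overlapped the controls, and Dot1l(fl/fl) replicate 3 was the lowest of them for both genes. The log2 fold change was 0.71 (SE 0.19, 1.63-fold) in Dot1l(fl/+), with an unadjusted p of 0.00273 and an edgeR adjusted p of 0.54, and 0.65 (SE 0.20, 1.57-fold) in Dot1l(fl/fl), with an unadjusted p of 0.00558 and an adjusted p of 0.999. In Dot1l(fl/+) both genes kept an unadjusted p under 0.05 in all 18 alternative ways of processing, and their adjusted p spanned 0.00281 to 0.867 (Mrps18c) and 0.00846 to 0.867 (Mrps21). The lowest came from the fit without a filter on low counts, where both passed the adjusted threshold. In Dot1l(fl/fl) the call of Mrps21 was lost, with an unadjusted p above 0.05, when replicate 2 was left out, at 0.053 with a log2 fold change of 0.39.

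Mrpl52, a mitochondria-specific protein of the large subunit, came next in size. It was at 6.48, 6.87 and 7.29 CPM in control, 7.64, 9.96 and 10.3 CPM in Dot1l(fl/+) and 8.76, 9.25 and 5.76 CPM in Dot1l(fl/fl). The Dot1l(fl/+) pools lay above control without overlap, whereas 1 Dot1l(fl/fl) pool was the lowest of all 9. The log2 fold change was 0.44 (SE 0.16, 1.35-fold, unadjusted p = 0.0195) in Dot1l(fl/+) and 0.22 (SE 0.17, unadjusted p = 0.215) in Dot1l(fl/fl). The Dot1l(fl/+) call was lost without control replicate 1 (0.40), Dot1l(fl/+) replicate 2 (0.38) or replicate 3 (0.35), and with the replicate block and the length and GC offset together (0.32, unadjusted p = 0.0528). The Dot1l(fl/fl) value was 0.097 without Dot1l(fl/fl) replicate 2 and 0.39 without replicate 3. For these 3 genes with the largest Dot1l(fl/+) differences the bases upstream of the start are printed, 5′ to 3′ on the gene's strand, from RefSeq windows of GRCm38.p6 and cut where the GENCODE gene begins. They lie at chr5:100798509-100798626 (Mrps18c, plus), chr3:95871520-95871764 (Mrps21, minus) and chr14:54426659-54426908 (Mrpl52, plus). Capitals mark an ETS motif in Mrps18c and Mrpl52 and an NRF1 motif in Mrps21, each as read on this strand.
Mrps18c: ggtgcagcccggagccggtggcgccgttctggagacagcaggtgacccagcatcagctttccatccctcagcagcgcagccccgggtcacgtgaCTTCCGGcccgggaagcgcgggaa
Mrps21: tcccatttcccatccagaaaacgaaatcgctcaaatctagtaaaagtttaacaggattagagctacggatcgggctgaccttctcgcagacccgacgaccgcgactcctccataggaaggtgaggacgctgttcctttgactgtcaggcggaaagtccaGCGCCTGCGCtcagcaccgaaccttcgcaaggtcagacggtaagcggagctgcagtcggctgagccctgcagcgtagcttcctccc
Mrpl52: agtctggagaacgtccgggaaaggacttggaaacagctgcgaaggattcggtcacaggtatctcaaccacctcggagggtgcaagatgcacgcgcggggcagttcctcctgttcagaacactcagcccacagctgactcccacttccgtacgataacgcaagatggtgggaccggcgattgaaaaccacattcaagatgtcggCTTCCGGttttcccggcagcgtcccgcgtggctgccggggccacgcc

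Members with and without these motifs were taken apart in Dot1l(fl/+). The 13 members with an NRF1 motif in the window had a median log2 fold change of 0.091 and the 49 without of 0.088, and the 22 with an ETS motif had 0.10 against 0.063 for the 40 without. The 9 with a YY1 motif had 0.051 and the 53 without 0.092. The ETS order turned in Dot1l(fl/fl), with 0.036 for members with the motif and 0.045 for those without. Mrps18c starts 29 bases from Helq, a DNA helicase gene on the opposite strand. Helq was at 20.4, 19.1 and 19.1 CPM in control and at 19.4, 16.2 and 17.3 CPM in Dot1l(fl/+), with a log2 fold change of −0.15 (SE 0.093, unadjusted p = 0.14). The 28 tested divergent neighbours that are not members had a median log2 fold change of −0.014 in Dot1l(fl/+), with 11 above 0 and 2 called higher, Lrrc46 and Ndufb5, where 4.3% of all genes were called higher.

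The other 6 genes that passed the unadjusted p in Dot1l(fl/+) differed by 1.14-fold to 1.2-fold. Mrpl39, a mitochondria-specific protein of the large subunit, was at 19.96, 23.2 and 20.4 CPM in control, 24.6, 25.6 and 24.5 CPM in Dot1l(fl/+) and 22.3, 22.8 and 23.8 CPM in Dot1l(fl/fl). Mrpl20, a relative of bacterial L20 that binds the large ribosomal RNA, was at 27.8, 27.7 and 25.6 CPM in control, 27.8, 33.9 and 32.9 CPM in Dot1l(fl/+) and 31.2, 31.9 and 30.1 CPM in Dot1l(fl/fl). For both genes every Dot1l(fl/+) pool was above every control pool, although Dot1l(fl/+) replicate 1 exceeded the highest Mrpl20 control by only 0.01 CPM. The log2 fold changes were 0.23 (SE 0.079, unadjusted p = 0.0111) for Mrpl39 and 0.22 (SE 0.081, unadjusted p = 0.0155) for Mrpl20. Mrpl46, also of the large subunit, was at 18.5, 18.6 and 17.8 CPM in control and at 18.5, 23.7 and 23.6 CPM in Dot1l(fl/+), so that replicate 1 lay among the controls. Its log2 fold change was 0.26 (SE 0.10, unadjusted p = 0.0213), and the Dot1l(fl/fl) pools were at 19.1, 21.5 and 19.5 CPM. The call of Mrpl39 was lost without control replicate 1 (log2 fold change 0.19). That of Mrpl20 was lost without control replicate 3 (0.19), Dot1l(fl/+) replicate 2 (0.17) or replicate 3 (0.19), and that of Mrpl46 without the same libraries (0.24, 0.20 and 0.21).

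In the small subunit Mrps34, a mitochondria-specific protein, was at 31.7, 28.04 and 27.4 CPM in control, 33.3, 33.1 and 32.9 CPM in Dot1l(fl/+) and 30.1, 28.9 and 28.5 CPM in Dot1l(fl/fl). The Dot1l(fl/+) pools were nearly equal and lay above all others. It differed by 0.19 on the log2 scale (SE 0.070, unadjusted p = 0.0178) in Dot1l(fl/+), whereas the Dot1l(fl/fl) difference was 0.0074. Mrps24, homologous to bacterial S3, was at 11.8, 12.8 and 11.7 CPM in control and 14.4, 14.9 and 13.1 CPM in Dot1l(fl/+), with no overlap between them and a log2 fold change of 0.23 (SE 0.094, unadjusted p = 0.0313). In Dot1l(fl/fl) it was at 12.6, 13.3 and 12.7 CPM, within the control range or just above it. Mrps25, another mitochondria-specific protein, was at 30.5, 32.8 and 31.4 CPM in control and 32.3, 38.3 and 37.1 CPM in Dot1l(fl/+), where replicate 1 again lay among the controls. Its log2 fold change was 0.19 (SE 0.080, unadjusted p = 0.0354), and the Dot1l(fl/fl) pools were at 31.0, 34.7 and 35.9 CPM. The call of Mrps34 was lost without control replicate 2 (log2 fold change 0.17) or 3 (0.15). The call of Mrps24 was lost without control replicate 1 (0.21) or 3 (0.20) or Dot1l(fl/+) replicate 1 (0.21) or 2 (0.18), and that of Mrps25 without control replicate 1 (0.16) or 3 (0.19) or Dot1l(fl/+) replicate 2 (0.14) or 3 (0.16). With DESeq2 on the 2 genotypes neither Mrps24 (unadjusted p = 0.0812) nor Mrps25 (0.0523) was called, nor was Mrps24 without a filter on low counts (0.0519). The edgeR adjusted p of these 6 genes was 0.54 to 0.57.

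**Figure D3:**
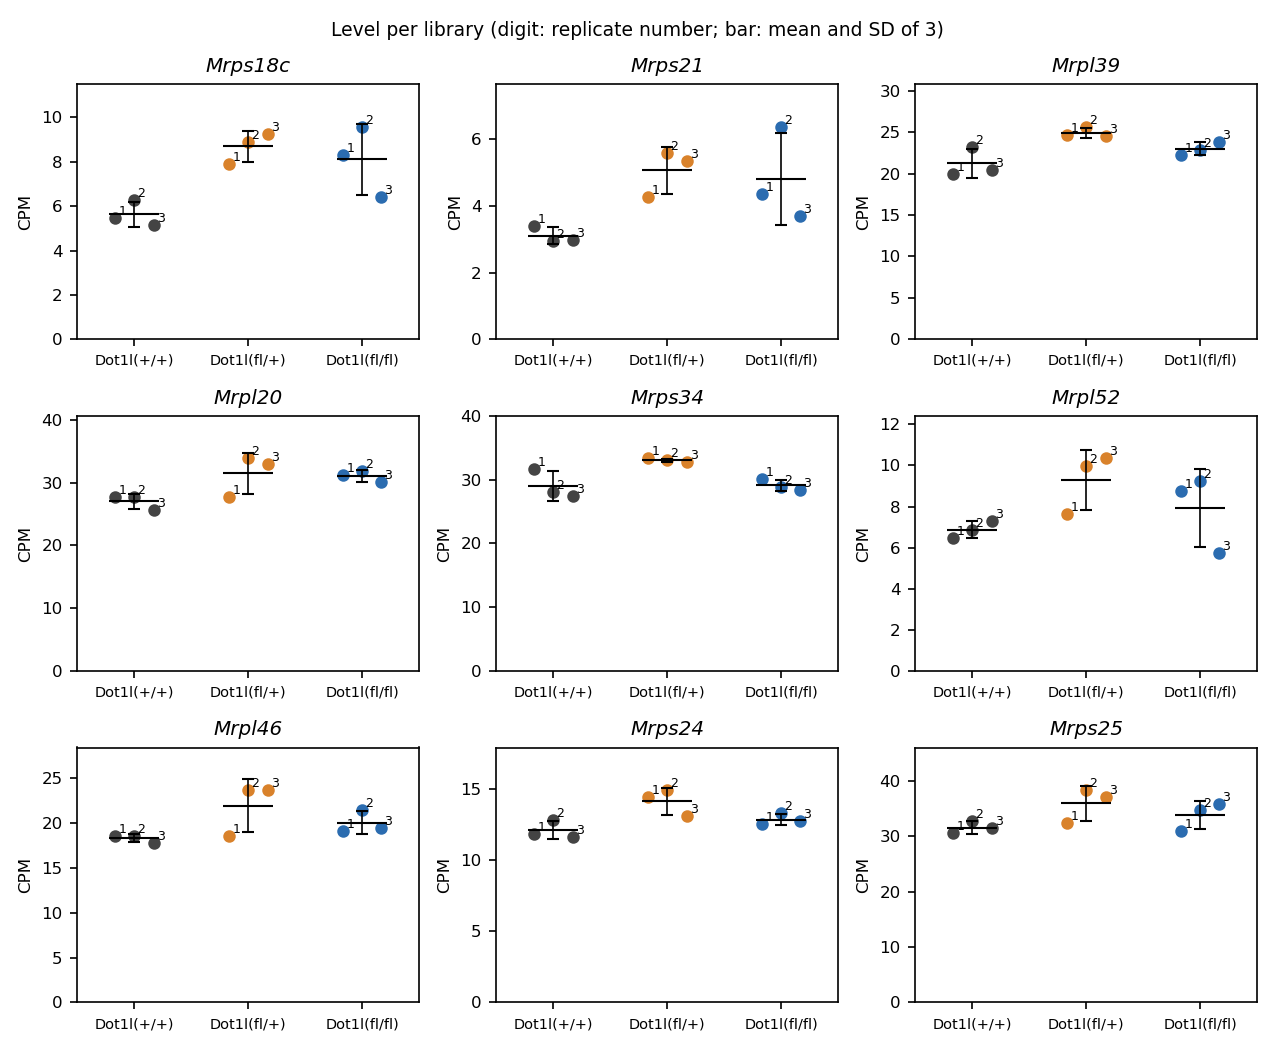
Level in CPM (vertical axis, from 0) of the 9 genes with an unadjusted p under 0.05 in any comparison, in each library of the 3 genotypes, with replicate numbers beside the points and the mean ± SD of 3 pools as bars. For Mrps18c and Mrps21 all orange and blue points lie above the grey control points, and for Mrpl46 and Mrps25 Dot1l(fl/+) replicate 1 lies at the control level.

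Several of these genes overlap others whose reads could be taken for theirs. The library kit keeps strand, but the strand setting of the counting is not given in the sources used here. Mrps34 shares 63.4% of its exonic bases with Mapk8ip3 on the opposite strand, which had 136233 counts and a Dot1l(fl/+) log2 fold change of 0.0039. It also shares 37.0% on the same strand with Nme3, which had 1 count. Mrps25 shares 69.8% with Nr2c2 on the opposite strand (30425 counts, −0.037). Mrps24 shares 15.4% with Urgcp on the same strand (16168 counts, 0.10) and Mrps18c shares 23.2% with Gm43511 (233 counts, −0.076). Mrps21 has a near copy, Gm6181, that had 3 counts. Over the 47 members that share neither 10% of their exonic bases nor a near copy annotated as a pseudogene, 35 were above 0 in Dot1l(fl/+). Of these 47, 3 were called (6.38%), all of them higher, where 4.3% of all genes were called higher and 8.39% in either direction. Among the 47 members the median log2 fold change of the 31 large subunit genes was 0.099, whereas that of the 16 small subunit genes was 0.021, with 9 above 0, against 0.085 over all 29.

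The members differed most between the Dot1l(fl/+) pools themselves. The median log2 ratio of the 77 tested members to their control mean was 0.016, 0.013 and −0.022 in the control pools. It was −0.0094 in Dot1l(fl/+) replicate 1, 0.175 in replicate 2 and 0.097 in replicate 3. Replicate 1 thus lay within the range of the controls, with 37 of 77 members above their control mean, against 69 in replicate 2 and 58 in replicate 3. In the Dot1l(fl/fl) pools the median was 0.036, 0.065 and 0.026, above every control pool in each. The number of members above their control mean did not separate them, with 47, 53 and 45 in the Dot1l(fl/fl) pools and 46, 44 and 24 in the control pools. The large and the small subunit showed the same order of the Dot1l(fl/+) pools, with 0.164 and 0.187 in replicate 2, 0.096 and 0.112 in replicate 3 and −0.0053 and −0.015 in replicate 1.

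**Figure D4:**
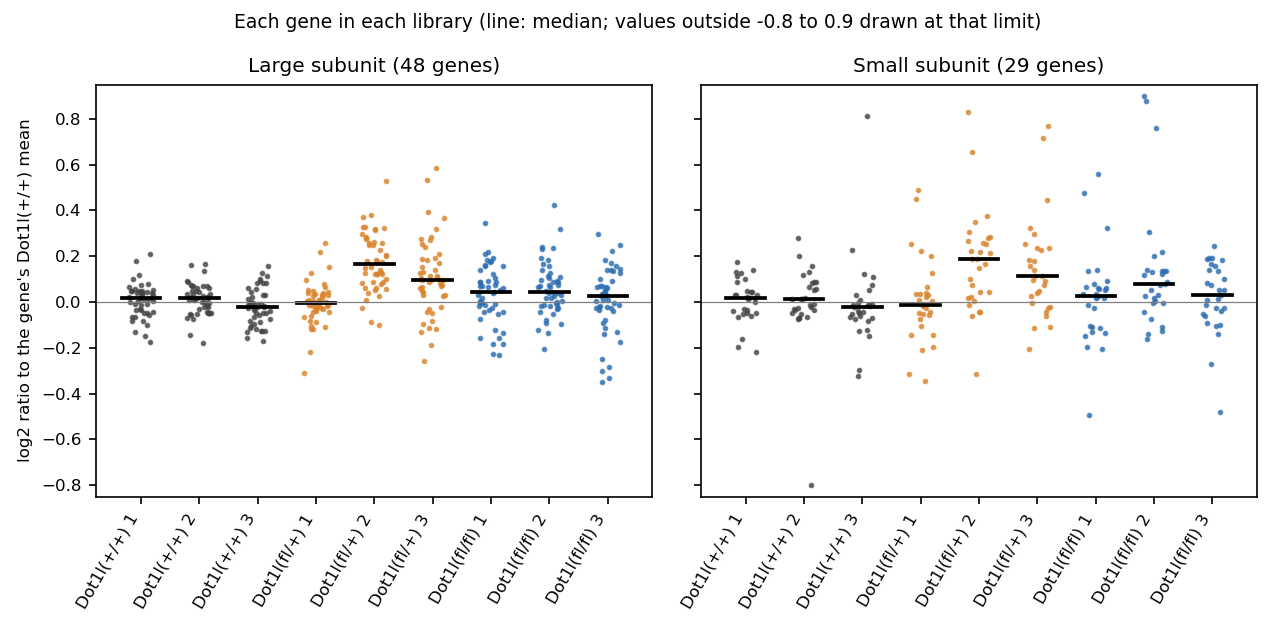
log2 ratio of each tested gene to its mean over the 3 Dot1l(+/+) libraries (vertical axis), in each of the 9 libraries, with 1 point per gene and the median as a line. Dot1l(fl/+) replicates 2 and 3 stand above the other libraries in both subunits, while Dot1l(fl/+) replicate 1 is level with the controls; 2 values beyond the axis are drawn at its limits.

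The number of genes called therefore depended on the Dot1l(fl/+) pools. Without Dot1l(fl/+) replicate 1, 22 of 77 members passed the unadjusted p, where 12.5% of all genes did, and the medians were 0.124 (large) and 0.151 (small). Without replicate 2, 5 members passed, 4 of them higher, where 10.2% of all genes did, and the medians were 0.057 and 0.058. Without replicate 3, the pool with most choroid plexus RNA, 5 passed, where 5.65% of all genes did, and the medians were 0.087 and 0.065. The pools richest in hypothalamus markers were replicates 1 and 3, of which the former had members at control level, and replicate 2, with the highest member levels, had hypothalamus markers at 1.31 CPM and the lowest Dot1l. The part of these differences in the result was not tested. Without control replicate 1 or 3, 6 members passed in each case, against 7.19% and 5.45% of all genes.

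The shortest genes had the larger differences in Dot1l(fl/+). Split by exonic length, the 25 shortest members had a median log2 fold change of 0.14 in Dot1l(fl/+) with 6 called, the 26 of middle length had 0.058 with 2 called and the 26 longest had 0.063 with 1 called. All were called higher, which is 24%, 7.69% and 3.85% against 4.3% of all genes called higher and 8.39% in either direction. In Dot1l(fl/fl) the order was another, with 0.032, 0.022 and 0.052, and r was −0.0761 (rho = 0.0227) across the 77 members. Across the 77 members the Dot1l(fl/+) fold change correlated with the log length at Pearson r = −0.257 (Spearman rho = −0.255), and across 17612 tested genes at r = −0.212 (rho = −0.259). These are correlations across genes measured in the same libraries, and genes are not independent replicates. With an offset for length and GC content the medians were 0.064 for the large and 0.053 for the small subunit, with 39 of 48 and 22 of 29 above 0, and 10 members passed the unadjusted p, 9 of them higher, where 6.88% of all genes passed. Mrps34 and Mrpl46 were no longer called, nor was Mrps24.

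In the Dot1l(fl/fl) midbrain the members lay closer to control. The fold change was above 0 for 34 of 48 large subunit genes, with a median log2 fold change of 0.040 (1.03-fold), and for 20 of 29 small subunit genes, with a median of 0.034 (1.02-fold), where 50.4% of all genes were above 0 and their median was 0.0009. Without Dot1l(fl/fl) replicate 1 the small subunit median was 0.068, and without control replicate 3 the large subunit median was 0.027. With edgeR 3 members passed an unadjusted p under 0.05, namely Mrps18c, Mrps21 and Mrpl20, all higher, where 2.21% of all genes passed as higher, 1.72% as lower and 3.93% in either direction. Mrpl20 differed by 0.20 on the log2 scale (SE 0.081, 1.15-fold, unadjusted p = 0.0266), and its Dot1l(fl/fl) pools did not overlap the controls. The call was lost without control replicate 3 (0.16) or Dot1l(fl/fl) replicate 1 (0.20) or 2 (0.18). The number called was 2 without Dot1l(fl/fl) replicate 1 or 2 (3.24% and 2.13% of all genes) and 5 without replicate 3 (5.26%). By the adjusted p 0 members passed (lowest 0.999). DESeq2 on all 9 libraries gave 3 by the unadjusted p, where 1.74% of its 28310 genes passed, and 0 by the adjusted p. All 3 Dot1l(fl/fl) pools lay above all controls in 10 members, against 5.03% of all genes, and below in 2, against 5.25%. These 2 were Mrpl22 of the exit tunnel (−0.25, SE 0.16, unadjusted p = 0.137) and Mrps11 (−0.14, SE 0.088, unadjusted p = 0.134), chosen after their values were seen. Of the markers, 8 of 10 for DA neurons were called lower (median log2 fold change −0.521), 2 of 3 for choroid plexus were called lower (−1.19), and 1 of 5 for microglia was called higher, with 5 of 5 above 0 (0.147). Also called higher was 1 of 3 for cortex and hippocampus (0.118). The part of all these markers in the members' values was not tested.

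Between the genotypes with floxed alleles, most members had a lower mean in Dot1l(fl/fl) than in Dot1l(fl/+). The fold change of Dot1l(fl/fl) against Dot1l(fl/+) was above 0 for 8 of 48 large subunit genes, with a median log2 fold change of −0.061, and for 9 of 29 small subunit genes, with a median of −0.056, where 50.5% of all genes were above 0. Mrps34 was the 1 member with an unadjusted p under 0.05. Its log2 fold change was −0.18 (SE 0.070, unadjusted p = 0.0221, edgeR adjusted p = 0.73), where 2.87% of all genes passed as lower, 3.6% as higher and 6.48% in either direction. The Dot1l(fl/fl) pools lay below all Dot1l(fl/+) pools in 6 members, against 5.14% of all genes, and above in 0, against 5.98%. In the same comparison 4 of 8 oligodendrocyte markers (median −0.13), 6 of 10 DA neuron markers (−0.37), 3 of 3 choroid plexus markers (−2.31) and both tested hypothalamus markers (−4.0) were called lower. Called higher were 1 of 5 neuron markers (0.049) and 1 of 3 blood markers (0.434). The part of all these markers in the members' values was not tested. The small subunit median turned to 0.0028 without Dot1l(fl/+) replicate 2 and the large subunit median was then −0.018, whereas without Dot1l(fl/+) replicate 1 they were −0.124 and −0.096. The number of members called was 10 without Dot1l(fl/+) replicate 1, 3 without replicate 2, 2 without Dot1l(fl/fl) replicate 1 and 0 without Dot1l(fl/fl) replicate 2 or 3, where 9.37%, 9.79%, 5.37%, 5.55% and 5.29% of all genes were called. The log2 fold change of Mrps34 stayed between −0.21 and −0.168 with single libraries left out, also where its call was lost. With the replicate number as a block it was 2 (7.12% of all genes), and with the length and GC offset 0 (5.76%). All 3 comparisons share libraries, so their values are not independent of each other.

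The subunit proteins were next taken by role. The stalk recruits translation factors. Its proteins Mrpl10, Mrpl11 and Mrpl12 had Dot1l(fl/+) log2 fold changes of 0.068 (SE 0.057), 0.17 (SE 0.091) and 0.14 (SE 0.079), with unadjusted p of 0.249, 0.0767 and 0.0931, and Dot1l(fl/fl) values of 0.0089, 0.11 and 0.017. At the tunnel exit, where new proteins leave towards the inner membrane, 5 of 6 genes were above 0 in Dot1l(fl/+) (median 0.062) and 0 were called. Over all genes tested 48.9% were above 0 and 8.39% were called. Among the 6 tunnel exit genes were Mrpl22 (−0.044, SE 0.15), Mrpl23 (0.28, SE 0.26), Mrpl24 (0.048, SE 0.065) and Mrpl45 (0.034, SE 0.072), the last of which docks the ribosome at the membrane.

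Of the 3 S18 paralogues, Mrps18c was called, whereas Mrps18a (27.8 ± 1.17 CPM in control and 30.9 ± 3.54 CPM in Dot1l(fl/+), SD, n = 3) and Mrps18b (4.72 ± 0.0897 and 5.41 ± 0.70 CPM) had log2 fold changes of 0.15 (SE 0.084) and 0.20 (SE 0.14) that did not pass. In the small subunit head and decoding centre, Mrps7 was at 29.7 ± 1.64 CPM in control, 32.9 ± 3.65 CPM in Dot1l(fl/+) and 31.1 ± 0.336 CPM in Dot1l(fl/fl), and Mrps12 at 19.1 ± 0.906, 21.4 ± 2.58 and 18.6 ± 0.865 CPM. Neither passed in any comparison. Mrpl58, a peptidyl-tRNA hydrolase that became part of the large subunit, was at 31.4 ± 2.10, 34.2 ± 1.74 and 32.7 ± 1.98 CPM, with no overlap between control and Dot1l(fl/+) and an unadjusted p of 0.119. Mrps30, which sits in the large subunit in spite of its symbol, was at 18.8 ± 2.95, 18.1 ± 2.76 and 17.9 ± 2.24 CPM. Mrps36, known as a component of the 2-oxoglutarate dehydrogenase complex, was at 0.421 ± 0.274, 0.338 ± 0.104 and 0.411 ± 0.295 CPM, too few counts to read a difference. With Mrps30 and Mrps18a moved to the large subunit and Mrps36 left out, the Dot1l(fl/+) medians were 0.095 over 50 and 0.087 over 26 genes.

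Genes of bacterial descent and those specific to mitochondria were taken apart. Of 46 genes with a bacterial homologue, 36 were above 0 in Dot1l(fl/+) with a median of 0.095 and 4 called (8.7%), and of 30 tested mitochondria-specific genes 25 were above 0 with a median of 0.087 and 5 called (16.7%). All were called higher, where 4.3% of all genes were called higher and 8.39% in either direction. In Dot1l(fl/fl) the medians were 0.038 and 0.045, with 3 (6.52%, all higher) and 0 called by the unadjusted p with edgeR, where 2.21% of all genes were called higher and 3.93% in either direction. Of 15 members with known human disease alleles, 11 were above 0 in Dot1l(fl/+) (median 0.088) and 3 were called, all higher, where 48.9% of all genes were above 0, 4.3% were called higher and 8.39% in either direction. Of these 15, 9 were above 0 in Dot1l(fl/fl) (median 0.017) and 0 were called. The spread between pools was small for most members, with a median coefficient of variation of 5.3% among the control pools, 8.03% among the Dot1l(fl/+) pools and 4.87% among the Dot1l(fl/fl) pools, against 6.96%, 9.03% and 7.13% over all genes tested, and was highest for Mrps36 in each genotype.

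The same ribosome holds proteins under other symbols. Of 5 such genes 4 were above 0 in Dot1l(fl/+) (median 0.125), and 2 were called higher, where 48.9% of all genes were above 0 and 4.3% were called higher. Gadd45gip1, of the large subunit, was at 24.6, 23.6 and 24.2 CPM in control, 25.3, 28.6 and 27.7 CPM in Dot1l(fl/+) and 23.5, 24.04 and 21.9 CPM in Dot1l(fl/fl), so Dot1l(fl/+) lay above both other genotypes. Its log2 fold change was 0.17 (SE 0.074, unadjusted p = 0.0362) against control and −0.23 (SE 0.075, unadjusted p = 0.00825) in Dot1l(fl/fl) against Dot1l(fl/+). Chchd1, of the small subunit, was at 9.74, 11.4 and 11.9 CPM in control and 12.3, 15.3 and 13.2 CPM in Dot1l(fl/+), again without overlap, with a log2 fold change of 0.30 (SE 0.12, unadjusted p = 0.0321). Dap3, the GTP-binding protein of the small subunit, had 0.049 (SE 0.058), Aurkaip1 had 0.12 (unadjusted p = 0.246) and Ptcd3 had −0.094 (SE 0.069).

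The factors that build and run the ribosome showed other values. Of 27 assembly factors, 15 were above 0 in Dot1l(fl/+) with a median of 0.023 and 0 called by the unadjusted p with edgeR, where 48.9% of all genes were above 0 and 8.39% were called. In Dot1l(fl/fl) 13 of the factors were above 0 with a median of −0.035 and 1 was called (3.7%, where 3.93% of all genes were called). That 1 was Mrm3, a methyltransferase of the large ribosomal RNA, at 12.4, 12.9 and 12.3 CPM in control, 12.3, 12.7 and 11.4 CPM in Dot1l(fl/+) and 9.92, 11.2 and 9.83 CPM in Dot1l(fl/fl). Its Dot1l(fl/fl) pools lay below all others, with a log2 fold change of −0.28 (SE 0.097, unadjusted p = 0.0124) against control. In Dot1l(fl/fl) against Dot1l(fl/+) 2 factors (7.41%, where 6.48% of all genes were called) were called lower, Mrm3 and Rcc1l (−0.21, SE 0.095, unadjusted p = 0.0494), an assembly factor of the large subunit.

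Of 10 translation factors found, 5 were above 0 in Dot1l(fl/+) (median −0.017). Guf1, the relative of the bacterial elongation factor LepA, was at 60.6, 67.2 and 69.5 CPM in control, 53.9, 52.4 and 47.7 CPM in Dot1l(fl/+) and 61.8, 60.8 and 62.4 CPM in Dot1l(fl/fl). The Dot1l(fl/+) pools were the 3 lowest of all 9. Against control its log2 fold change was −0.36 (SE 0.065, unadjusted p = 9.03e-05, edgeR adjusted p = 0.53), and that of Dot1l(fl/fl) against Dot1l(fl/+) was 0.26 (SE 0.065, unadjusted p = 0.00131). Mtrf1l, a release factor, was called higher in Dot1l(fl/fl), at 10.04, 10.6 and 10.1 CPM against 8.04, 8.93 and 8.38 CPM in control (log2 fold change 0.28, SE 0.11, unadjusted p = 0.0238). The other translation factors passed in neither comparison with control.

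The RNAs that the ribosome contains and reads gave another order of the genotypes. The mitochondrial ribosomal RNA mt-Rnr1 was at 2214, 2662 and 2340 CPM in control, 2604, 3345 and 2137 CPM in Dot1l(fl/+) and 3007, 3095 and 2586 CPM in Dot1l(fl/fl), with overlapping pools and log2 fold changes of 0.16 (SE 0.13) and 0.27 (SE 0.13, unadjusted p = 0.0569). The larger mt-Rnr2 had 0.14 (SE 0.12) and 0.18 (SE 0.12). Of 13 protein genes of mitochondrial DNA, 7 had enough counts to test. The untested genes mt-Co2, mt-Co3 and mt-Atp6 had 64, 61 and 60 counts and mt-Atp8 had 0, beside 2040418 for mt-Co1. Why these counts are so low was not tested, so they were not read as levels of expression. In Dot1l(fl/+) 2 of the 7 tested genes were above 0 (median −0.054), in Dot1l(fl/fl) 7 were (median 0.106), and 0 were called in either with edgeR. In Dot1l(fl/fl) against Dot1l(fl/+) 4 of 7 were called higher by the unadjusted p, where 3.6% of all genes were, among them mt-Nd5, a complex I subunit, at 5237, 4587 and 4562 CPM against 4120, 4300 and 3714 CPM (log2 fold change 0.25, SE 0.082, unadjusted p = 0.0103). These pools did not overlap.

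**Figure D5:**
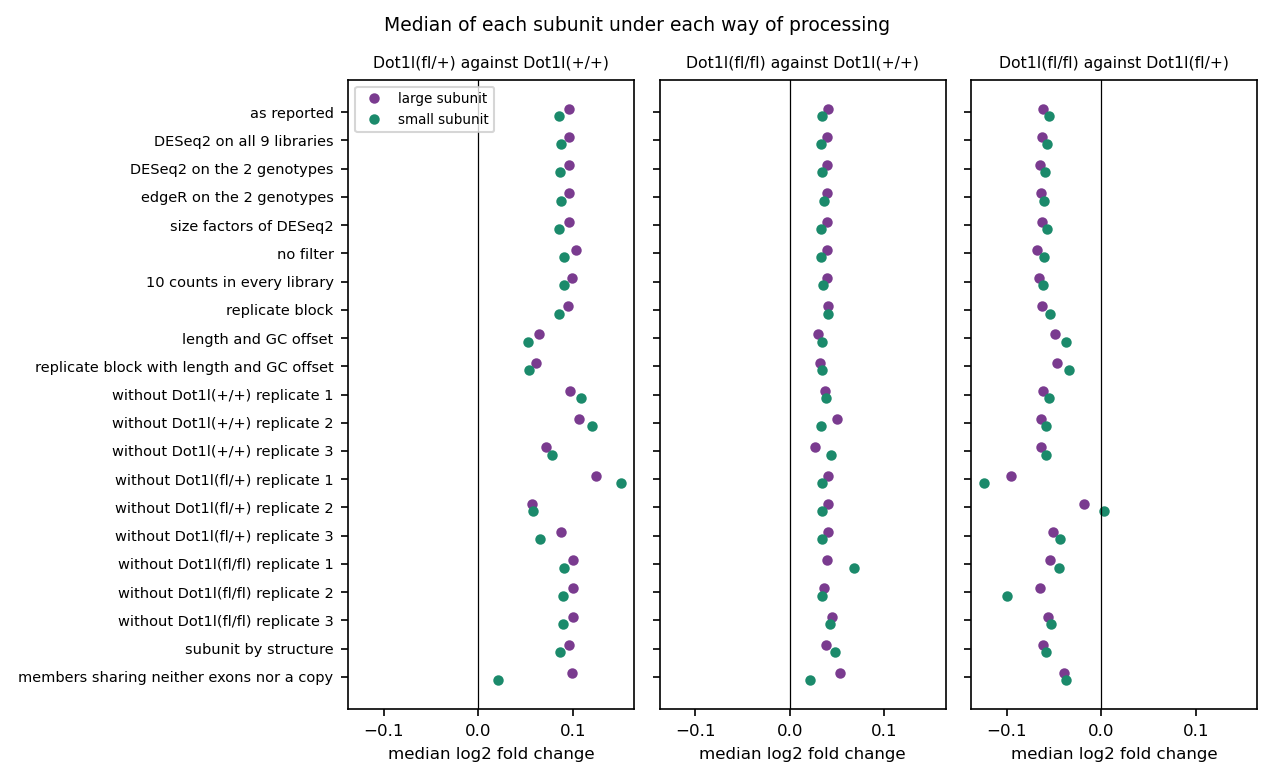
Median log2 fold change of the tested genes of each subunit (horizontal axis) in the 3 comparisons, as reported and under each other way of processing (rows). The medians of Dot1l(fl/+) against control lie above 0 in every row; without Dot1l(fl/+) replicate 1 they are 0.124 and 0.151, and the small subunit median of Dot1l(fl/+) against control is 0.021 over genes that share neither exons nor a copy.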

How the data were processed

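Total RNA of dissected midbrain was sequenced with a directional kit (NEBNext Ultra). Per the labels, reads were processed with bcl2fastq 2.17, Trimmomatic 0.30 and DESeq2 1.10.1 on GRCm38.p4; the aligner, the counting tool, its strand setting and the annotation release are not given in the sources used here. The deposited files hold whole-number counts per Ensembl gene for each of 9 libraries. Other deposited tables hold the authors' own comparisons (fold changes and p-values) and were not used.

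Symbols, exons and coordinates came from GENCODE M21 (GRCm38), which matched 47310 of 47729 identifiers. The counts were fitted with edgeR 4.0.16 (filterByExpr, TMM, glmQLFTest) in 1 model over the 9 libraries that had genotype as its single term, and p-values were adjusted by Benjamini-Hochberg over 17671 genes. "Called" means an unadjusted p under 0.05. CPM are TMM-normalized; library ratios use log2 CPM with a prior count of 2. Near copies (blastn 2.17.0) have at least 95% identity over at least 200 bases and are annotated as pseudogenes. Matches to genes of other types, such as that of Mrpl13 to Eapp (96.5% over 202 bases), did not count. Medians over genes are descriptions without a test.

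Named were all called members, the 3 highest and 3 lowest of each subunit per kilobase in control, members that failed the filter, and members fixed by role; other genes came from fixed lists of subunits, assembly factors, translation factors and mitochondrial transcripts. Members, lists and tests were chosen with earlier results of these data known. Alternatives were DESeq2 1.42.0, fits of 2 genotypes, other scaling and filters, a replicate block, a length and GC offset, leaving out each library, another subunit assignment and, chosen after seeing the data, leaving out genes that share exons or a copy. The study's methods describe pools of matched littermates; no source states that equal replicate numbers mark matched pools, so the reported fit has no block.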

Additional observations from a re-analysis of the deposited data

How the results depend on the processing

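The direction of the 6 subunit medians held under every alternative except the small subunit median of Dot1l(fl/fl) against Dot1l(fl/+), which ranged from −0.124 to 0.00283 when single libraries were left out. The small subunit median of Dot1l(fl/+) against control was 0.0208 over members sharing neither exons nor a copy, and ranged from 0.0575 to 0.151 when single libraries were left out. Unadjusted calls then ranged from 5 to 22 in Dot1l(fl/+), from 2 to 5 in Dot1l(fl/fl) and from 0 to 10 between the floxed genotypes, and 0 members passed the adjusted p in any comparison. Without a filter on low counts 2 members passed the adjusted p in Dot1l(fl/+), and 2 passed the unadjusted p between the floxed genotypes, where 6.34% of all genes did. With at least 10 counts in every library 2 members also passed the unadjusted p there, where 6.64% of all genes did. Over all genes, edgeR called 0 by the adjusted p in Dot1l(fl/+), DESeq2 on all libraries 7, DESeq2 on the 2 genotypes 42 and edgeR without a filter 251; the cause was not tested. The log2 fold change of Mrps34 in Dot1l(fl/fl) against control changed sign without control replicate 2 (−0.0133) or 3 (−0.0339) or without Dot1l(fl/fl) replicate 1 (−0.0155), over a range of −0.0339 to 0.0738 with single libraries left out.

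The deviations of libraries with the same replicate number correlated at 0.317, 0.111 and 0.0898 between control and Dot1l(fl/+), at 0.312, 0.182 and 0.0222 between control and Dot1l(fl/fl) and at 0.289, 0.143 and 0.08 between the floxed genotypes. Pairs with different numbers correlated at −0.267 to 0.108, and the same-number value was the highest for most pools. For Dot1l(fl/fl) replicate 3 it was not, at 0.0222 against 0.106 with control replicate 2. These values do not settle whether the numbers pair the pools, so the replicate block is given as an alternative. With the replicate block the medians in Dot1l(fl/+) were 0.0944 (large) and 0.0857 (small) with 9 unadjusted calls, where 9.34% of all genes were called. In Dot1l(fl/fl) against Dot1l(fl/+) 2 members were then called instead of 1, where 7.12% of all genes were called. With the replicate block and the length and GC offset together, 5 members were called in Dot1l(fl/fl) against control, 4 of them higher, where 4.27% of all genes were called. Between the floxed genotypes 0 members were then called (6.3% of all genes), as with the offset alone (5.76%).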

Other observations

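Some pseudogenes carry a mitochondrial ribosome symbol and were left out of the members. Of 5 in the files 3 were tested. Mrpl23-ps1, with 1384 counts against 211 for Mrpl23 itself, was at 3.83, 5.07 and 4.85 CPM in control, 5.48, 7.70 and 7.59 CPM in Dot1l(fl/+) and 6.52, 8.23 and 7.76 CPM in Dot1l(fl/fl). No pool with a floxed allele overlapped the controls. The log2 fold change was 0.59 (SE 0.16, unadjusted p = 0.0026, edgeR adjusted p = 0.54) in Dot1l(fl/+) and 0.70 (SE 0.16, unadjusted p = 0.000749, edgeR adjusted p = 0.999) in Dot1l(fl/fl). Mrpl48-ps, with 3003 counts against 7856 for Mrpl48, had 0.20 in both (unadjusted p = 0.102 and 0.109).

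Among divergent neighbours, Ndufb5, a complex I subunit gene that starts beside Mrpl47, was at 67.4, 68.9 and 59.5 CPM in control and 74.5, 82.7 and 74.4 CPM in Dot1l(fl/+), all above control (log2 fold change 0.24, SE 0.069, unadjusted p = 0.00342), while Mrpl47, with which it shares 616 exonic bases on the opposite strand, had 0.076. Lrrc46, beside Mrpl10, had 155 counts in all and log2 fold changes of 0.96 (SE 0.35) in Dot1l(fl/+) and 1.05 (SE 0.36) in Dot1l(fl/fl).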
